A study of Mus musculus with 30 samples.

Results

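The clustered histone genes are the mouse genes whose symbols begin with Hist1h, Hist2h, Hist3h or Hist4 and that encode the linker histone H1 or the core histones H2A, H2B, H3 and H4. The GENCODE M21 annotation of GRCm38 lists 67 protein-coding genes of this kind. Of these, 64 had a row among the 29861 genes of the deposited expression table and are described here. The remaining 3 (Hist1h2bh, Hist1h2bm and Hist2h2bb) were not analysed here. The 64 genes comprise 6 of H1, 18 of H2A, 15 of H2B, 12 of H3 and 13 of H4. The Hist1 cluster on chromosome 13 holds 52 of them, the Hist2 cluster on chromosome 3 holds 9, the Hist3 cluster on chromosome 11 holds 2, and Hist4h4 lies alone on chromosome 6.

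RNA was measured in CCG-HTA-1, a primary tail fibroblast line from UMHet3 mice, a genetically mixed stock, at passage 4. The labels give the donor mice an age of 5 to 8 weeks, except for Dihydrorotenone replicate 1, labelled 8 to 11 weeks. Cells were exposed to 1 of 8 compounds or to the solvent DMSO, and RNA was taken 48 hours later. Of the 8, Dihydrorotenone and Antimycin A inhibit respiration in mitochondria, Podofilox binds tubulin, Cardamonin is a chalcone found in plants, Clofilium tosylate is known to block potassium channels, and Diphenyleneiodonium Cl inhibits flavin enzymes. The others were AEG 3482 and BerberineA. Each compound has 3 libraries and DMSO has 6, and all 30 come from this 1 line, so that p-values measure the spread between its libraries and not between animals. Every group shared high-glucose medium that held 10% serum and antibiotics but no pyruvate. Every group was also kept in ambient oxygen with 10% CO2 at 37 °C. Doses are not used here. The labels give 6 DMSO libraries, all used here, although the series text speaks of 5.

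Each nucleosome wraps DNA around pairs of the 4 core histones, and H1 binds the linker between nucleosomes. Most clustered histone genes are transcribed mainly while DNA is replicated, have no introns, and give short messenger RNAs that end just after a conserved stem-loop instead of a poly(A) tail. The stem-loop is bound by SLBP, which guides 3′ end formation, translation and the decay of the RNA when replication stops. Some members are known to make a second, polyadenylated RNA in cells that have left the cycle. Libraries of total RNA depleted of ribosomal RNA, as here, can hold both kinds.

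The stem-loop was looked for in the annotated transcripts, because it is the feature that sets these RNAs apart. A match to the histone stem-loop consensus of 16 bases was present in a transcript of 44 of the 64 genes. Several of the others have only a short annotated transcript, such as 381 bases in Hist1h2bl, 411 in Hist1h3i and 312 in Hist1h4k. Whether these annotations stop before a stem-loop was not tested, so a missing match does not show that a gene lacks one. Over all annotated protein-coding genes outside the clusters, 31 of 21884 (0.142%) had a match. The windows of 30 bases below, read from GENCODE M21 transcripts of GRCm38, have the stem-loop in capitals and come from the genes on which the results turn.
Hist1h1c: tccaaaaGGCTCTTTTCAGAGCCaccactc
Hist1h1e: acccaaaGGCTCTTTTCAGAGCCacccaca
Hist2h2aa1: ctaaaaaGGCTCTTTTCAGAGCCacccact
Hist3h2a: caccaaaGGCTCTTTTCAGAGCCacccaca
Hist1h2bk: caccaaaGGCTCTTTTAAGAGCCactaaac
Hist1h3d: ccccaaaGGCTCTTTTCAGAGCCacccccg
Hist2h3c2: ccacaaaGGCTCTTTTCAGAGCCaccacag
Hist1h4h: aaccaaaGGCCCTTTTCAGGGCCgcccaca
Hist1h4i: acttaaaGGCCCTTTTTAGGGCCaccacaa

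The 16 bases of Hist1h1c, Hist1h1e, Hist2h2aa1, Hist3h2a, Hist1h3d and Hist2h3c2 were identical. What follows them was not. The annotated transcript went on for 30 bases after the stem-loop in Hist1h2bk, 35 in Hist2h2aa1 and 46 in Hist1h4h. It went on for 330 bases in Hist1h4i, 377 in Hist2h3c2, 752 in Hist1h3d, 840 in Hist1h1c, 1153 in Hist1h1e and 1643 in Hist3h2a. The annotated transcripts of Hist1h2bc and Hist1h2br hold no match. In all, 17 of the 64 genes have an annotated transcript longer than 1000 bases and 47 do not.

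The promoters were read from RefSeq (GRCm38.p6), in which 59 of the 64 genes matched an entry that covers 250 bases before the start site and 50 after it. Motifs were searched on both strands. CCAAT was present in all 6 H1, all 18 H2A, all 13 H2B and all 10 H3 promoters matched, but in 3 of 12 H4 promoters, against 37.4% of all 32851 promoters of that length. ATTTGCAT, the octamer, was present in 7 of 18 H2A and 5 of 13 H2B promoters and in none of H1, H3 or H4, against 1.74% of all. AAACACA, a known element of H1 promoters, was present in 5 of 6 H1 promoters, against 7.18% of all. TATAAA was present in 35 of 59, against 13.6% of all. These are matches of letters and not sites of binding.

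The 250 bases before the start site are shown for the linker histone genes Hist1h1c and Hist1h1e, the highest and 1 of the low genes of their type, and for Hist1h2ac, whose sequence covers nearly all of the gap it shares with Hist1h2bc. Motifs are in capitals, and a motif on the other strand appears as its complement (ATTGG for CCAAT, ATGCAAAT for ATTTGCAT).
Hist1h1c (GRCm38.p6, chr13:23738557-23738806, plus strand): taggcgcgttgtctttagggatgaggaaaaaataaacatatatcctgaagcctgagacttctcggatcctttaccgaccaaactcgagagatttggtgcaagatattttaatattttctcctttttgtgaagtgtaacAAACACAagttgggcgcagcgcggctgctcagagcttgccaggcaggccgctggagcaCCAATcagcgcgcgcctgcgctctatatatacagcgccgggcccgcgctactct
Hist1h1e (GRCm38.p6, chr13:23622559-23622808, minus strand): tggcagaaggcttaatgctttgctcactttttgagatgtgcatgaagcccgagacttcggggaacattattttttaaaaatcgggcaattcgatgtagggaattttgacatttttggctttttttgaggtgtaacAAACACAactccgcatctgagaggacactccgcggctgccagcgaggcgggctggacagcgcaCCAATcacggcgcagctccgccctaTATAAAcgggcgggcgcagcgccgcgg
Hist1h2ac (GRCm38.p6, chr13:23683960-23684209, minus strand): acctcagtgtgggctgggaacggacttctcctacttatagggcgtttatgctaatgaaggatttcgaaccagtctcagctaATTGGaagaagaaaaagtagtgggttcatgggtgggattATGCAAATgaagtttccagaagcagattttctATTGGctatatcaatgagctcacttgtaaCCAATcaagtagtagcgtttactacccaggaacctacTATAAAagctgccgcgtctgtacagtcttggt

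Hist1h1c has CCAAT at -54 and AAACACA at -112 from the start site. Hist1h1e has CCAAT at -52, AAACACA at -115 and also TATAAA at -27. The pair thus share their elements nearly in register, while their mean levels in DMSO were 250.3 and 1.95 TPM.

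Values are TPM, the authors' unit of transcript abundance, a scale corrected for transcript length so that levels of different genes can be set beside each other. The correction rests on annotated lengths, which in GENCODE M21 were, for example, 312 bases in Hist1h4k and 7425 in Hist1h1d. Whether the RNAs in these cells have the annotated lengths was not tested. Levels of different genes, and sums over types, are compared below with that limit. Sequencing depth is unknown from TPM. In DMSO, 36 of the 64 genes had a mean under 1 TPM, 19 lay between 1 and 10, 7 between 10 and 100, and 2 above 100. The 2 were Hist1h1c, a linker histone (chr13:23738808-23740367, ENSMUSG00000036181), and Hist1h2bc, an H2B gene (chr13:23684199-23692908, ENSMUSG00000018102). Hist1h1c ran from 218 to 314 TPM over the 6 DMSO libraries, with a median of 239.7. Hist1h2bc ran from 199 to 235 TPM, with a median of 221. They ranked 502 and 582 among the 29861 genes by mean level in DMSO, and their ranges overlapped. Together they made up 66.5% ± 1.26 (SD, n = 6) of the summed TPM of all 64 genes.

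**Figure D1:**
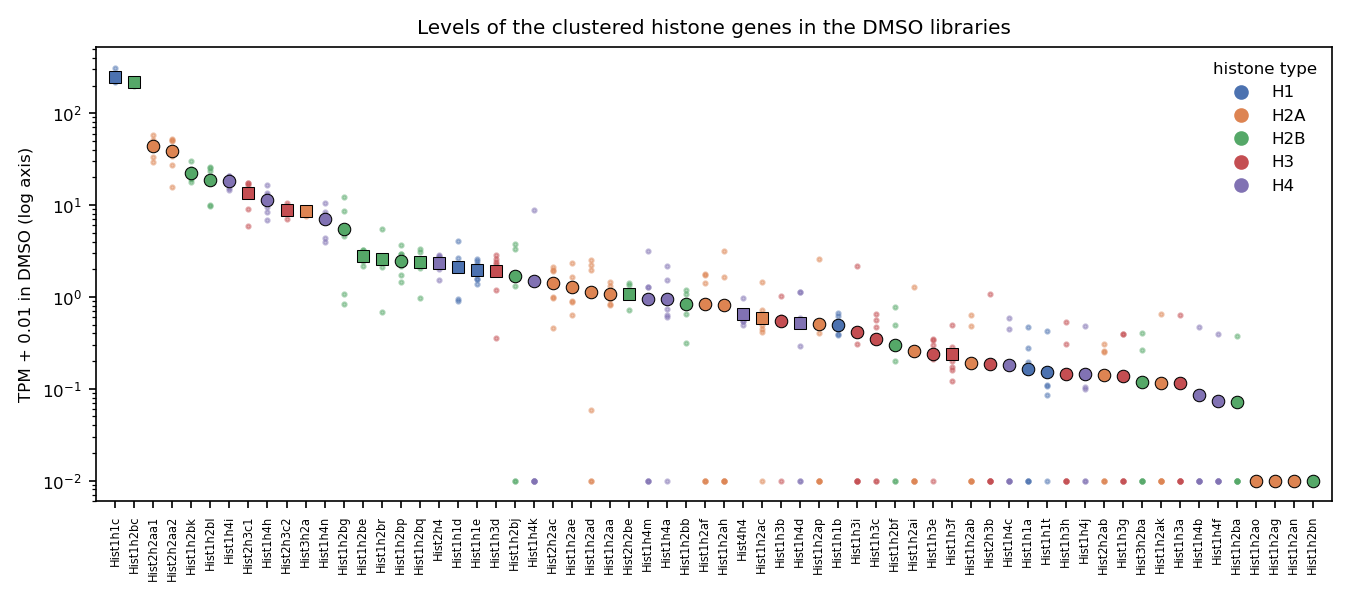
Levels of the 64 clustered histone genes in DMSO, as TPM plus 0.01 on a log axis, ordered by mean. Large symbols are means over 6 libraries, small points are libraries, colour is the histone type, and squares mark genes with an annotated transcript longer than 1000 bases. Hist1h1c and Hist1h2bc stand above 100 TPM and 36 genes lie under 1 TPM.

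The next in order were an adjacent pair of H2A genes of the Hist2 cluster, Hist2h2aa1 at 44.1 ± 10.8 TPM and Hist2h2aa2 at 38.4 ± 15.1 TPM (SD, n = 6). Their 31-base words are nearly all shared (every word of Hist2h2aa2 also occurs in Hist2h2aa1), so how reads were divided between them is uncertain. The H2B genes Hist1h2bk (22.5 ± 4.46 TPM) and Hist1h2bl (18.8 ± 7.37 TPM) and the H4 gene Hist1h4i (18.2 ± 2.65 TPM) followed, and these 3 did not differ beyond their spread. Hist2h3c1, the highest H3 gene, was at 13.4 TPM, and Hist1h4h, an H4 gene, at 11.3 ± 3.65 TPM. Hist1h1e and Hist1h1d, the next H1 genes, were at 1.95 ± 0.522 and 2.12 TPM, far below Hist1h1c. Listed at 0 in all 6 DMSO libraries were Hist1h2ag, Hist1h2an, Hist1h2ao and Hist1h2bn. The level went with the annotated transcript: 13 of 17 genes with a long transcript reached 1 TPM in DMSO (median 2.34 TPM), and 15 of 47 without one did (median 0.408 TPM). TPM itself depends on the length assumed for a gene, and the part of this in the difference was not tested.

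The linker histone sum and the core sums were unequal. In DMSO the H1 genes summed to 255 ± 36.8 TPM, H2A to 99.5 ± 9.61, H2B to 279.8 ± 17.6, H3 to 26.6 ± 4.92 and H4 to 43.8 ± 5.03 (SD, n = 6). The whole came to 705 ± 54.8 TPM. The 11 replication-independent histone genes of a list used for comparison, which includes H1f0 and the H2afz and H3f3b variants, summed to 2084 ± 150.4 TPM in the same libraries.

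Sequence sharing bears on single genes more than on sums. Of the 64 genes, 40 share at least 50% of their 31-base words with another gene, and 61 share at least 1 with an annotated gene that is not a member. The share was 11.4% for Hist1h1c, 33.5% for Hist1h2bc, 27.6% for Hist1h3d and 32.1% for Hist3h2a. It was 89.5% for Hist1h2br, mainly with its neighbour Hist1h2bq, and 100% for Hist2h2aa1, Hist2h2aa2 and Hist2h3c1. Only 5 genes share words with a histone gene of another type, so sums per type are less exposed to reads moved between members, though not to reads moved to other genes.

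Hist2h3c1 is a case of such sharing. Every 31-base word of Hist2h3c1 also occurs in Gm20634, an annotated non-coding transcript on the same strand (chr3:96245554-96248509) that begins inside Hist2h2aa1 and ends where Hist2h3c1 ends. Gm20634 was at 7.22 to 14.4 TPM in 9 libraries spread over 7 of the 9 groups, and at 0.206 to 0.606 TPM in the other 21. Hist2h3c1 had a median of 4.08 TPM (2.10 to 13.3) in those 9 libraries and of 13.0 TPM (9.21 to 23.3) in the 21. The 9 were replicate 1 of Antimycin A, AEG 3482 and Podofilox, replicate 2 of BerberineA, replicate 3 of Diphenyleneiodonium Cl, Clofilium tosylate and Podofilox, and DMSO replicates 5 and 6. In each of the 7 groups that held both kinds, Hist2h3c1 was lower in every library with high Gm20634 than in every library without. Results for H3 are therefore given below with and without Gm20634 added.

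Neighbouring genes of opposite strands that start within 1000 bases of each other formed 12 pairs, all of 1 H2A and 1 H2B gene, 176 to 306 bases apart. The members of a pair were not at like levels. Hist1h2ac was at 0.579 TPM in DMSO while Hist1h2bc, which starts 251 bases away on the other side of the gap printed above, was at 219 TPM. Hist1h2ah was at 0.805 TPM beside Hist1h2bk at 22.5, and Hist1h2ai at 0.250 beside Hist1h2bl at 18.8. Hist2h2ac (1.39 TPM) and Hist2h2be (1.08 TPM) were near each other. The H2B gene was the higher in 8 pairs and the H2A gene in 4, and over the 12 pairs H2B summed to 276 TPM and H2A to 7.09. Hist1h2bc alone held 219 of the 276 TPM.

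**Figure D2:**
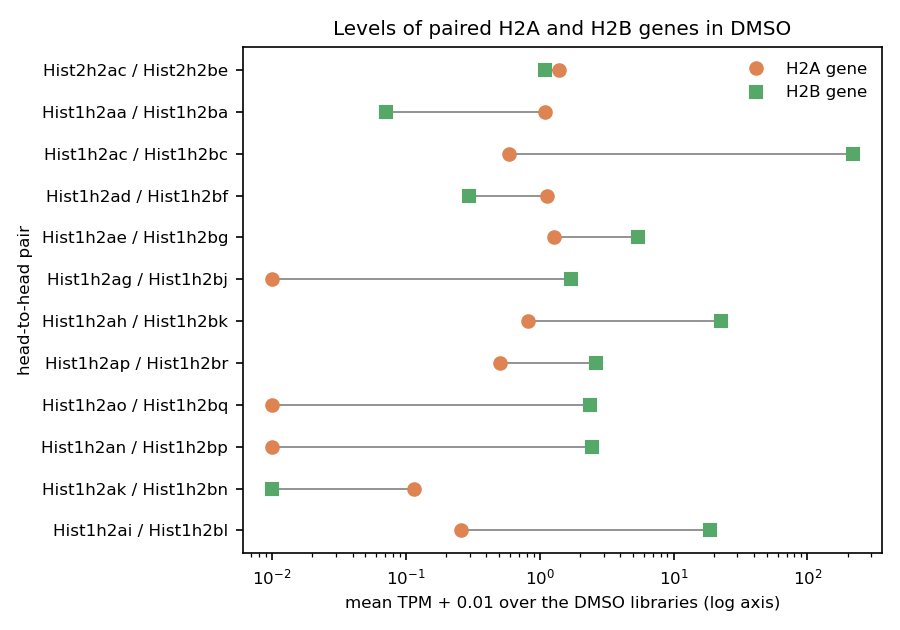
Mean TPM plus 0.01 over the 6 DMSO libraries (log axis) of the 12 pairs of H2A (circles) and H2B (squares) genes that start head to head. The widest gap is between Hist1h2ac at 0.579 TPM and Hist1h2bc at 219 TPM.

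The fibroblast label and the state of the libraries were checked. All 10 fibroblast markers (collagens and the like) were at 1 TPM or more in every library. Their summed level was 4264 to 5463 TPM with Cardamonin and 8728 to 12905 TPM with the other compounds, against 10780 to 12226 TPM in DMSO. Markers of keratinocytes summed to 1.19 to 2.88 TPM, of muscle to 0.130 to 1.52, of adipocytes to 0 to 0.199 and of immune cells to 17.8 to 45.4 (28.8 to 45.4 with Cardamonin, 20.3 to 21.4 with AEG 3482, 24.8 to 30.1 in DMSO), and Krt5, Myod1 and Plin1 were listed at 0 throughout. Endothelial markers summed to 2.23 to 2.93 TPM with Cardamonin and 2.40 to 2.55 with AEG 3482, against 6.13 to 9.82 in DMSO. Chondrocyte markers summed to 6.44 to 6.79 TPM with Cardamonin, 7.15 to 7.86 with AEG 3482 and 6.99 to 7.75 with Podofilox, against 3.75 to 6.18 in DMSO. Schwann cell or melanocyte markers summed to 3.87 to 7.22 TPM over all libraries. The endothelial, chondrocyte and immune sums rest largely on 1 gene each. Over all libraries the median of Tek was 5.94 TPM, where the endothelial sum had a median of 7.34. For Sox9 it was 4.77 TPM against 5.37 for the chondrocyte sum, and for Cd68 14.5 TPM against 23.0 for the immune sum. Shifts in these sums are therefore not measures of cell makeup. The part of the marker shifts in the histone values was not tested. The libraries held 12229 to 12700 genes at 1 TPM or more. Library numbers run on within each group, so group and library number cannot be told apart. The labels do not say whether the numbers record an order of preparation.

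The sum over all 64 genes did not leave the DMSO range with any compound. It was 613 ± 52.6 TPM with Podofilox, the lowest group, and 852 ± 67.8 TPM with Diphenyleneiodonium Cl, the highest (SD, n = 3), against 634 to 776 TPM over the DMSO libraries. In each of the 8 groups at least 1 library lay inside that range. In bulk RNA, fewer cells making an RNA and less of it per cell cannot be told apart. The makeup differed. Hist1h1c and Hist1h2bc held 54.9% ± 3.49 of the sum with Cardamonin and 46.0% ± 0.789 with AEG 3482, while the group means with the other 6 compounds were 68.1% to 71.2%. Without these 2 genes, the sum was 345 TPM with Cardamonin and 372 TPM with AEG 3482, against 236 TPM in DMSO, and both groups then lay above the DMSO range.

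By type, Cardamonin left the DMSO range in all 5. H1 was at 160.1 ± 45.7 TPM with Cardamonin and lay below DMSO, whereas H2A (126 ± 5.56), H2B (363 ± 4.84), H3 (40.1 ± 2.01) and H4 (77.9 ± 2.16) lay above. On the log2 scale these differences from DMSO were -0.67 for H1, 0.34 for H2A, 0.38 for H2B, 0.59 for H3 and 0.83 for H4. AEG 3482 left it in 4 types. H1 was at 147 ± 12.02 TPM, below DMSO (-0.80 on the log2 scale), and H2A at 169 ± 21.7 (0.77), H3 at 59.1 ± 9.05 (1.15) and H4 at 66.0 ± 5.66 (0.59) lay above, while H2B at 246.6 ± 7.95 overlapped. Among the other compounds, H3 was at 14.4 ± 3.34 TPM with Antimycin A, below DMSO (-0.88), H2A at 76.9 ± 6.48 TPM with Podofilox, below (-0.37), and H4 at 54.6 ± 1.42 TPM with Diphenyleneiodonium Cl, above (0.32). Sums over the members carry no test here. How often like sums of other genes leave the DMSO range was not counted. Of all tested genes, 70.3% changed with Cardamonin and 68.1% with AEG 3482 (limma, adjusted p under 0.05).

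**Figure D3:**
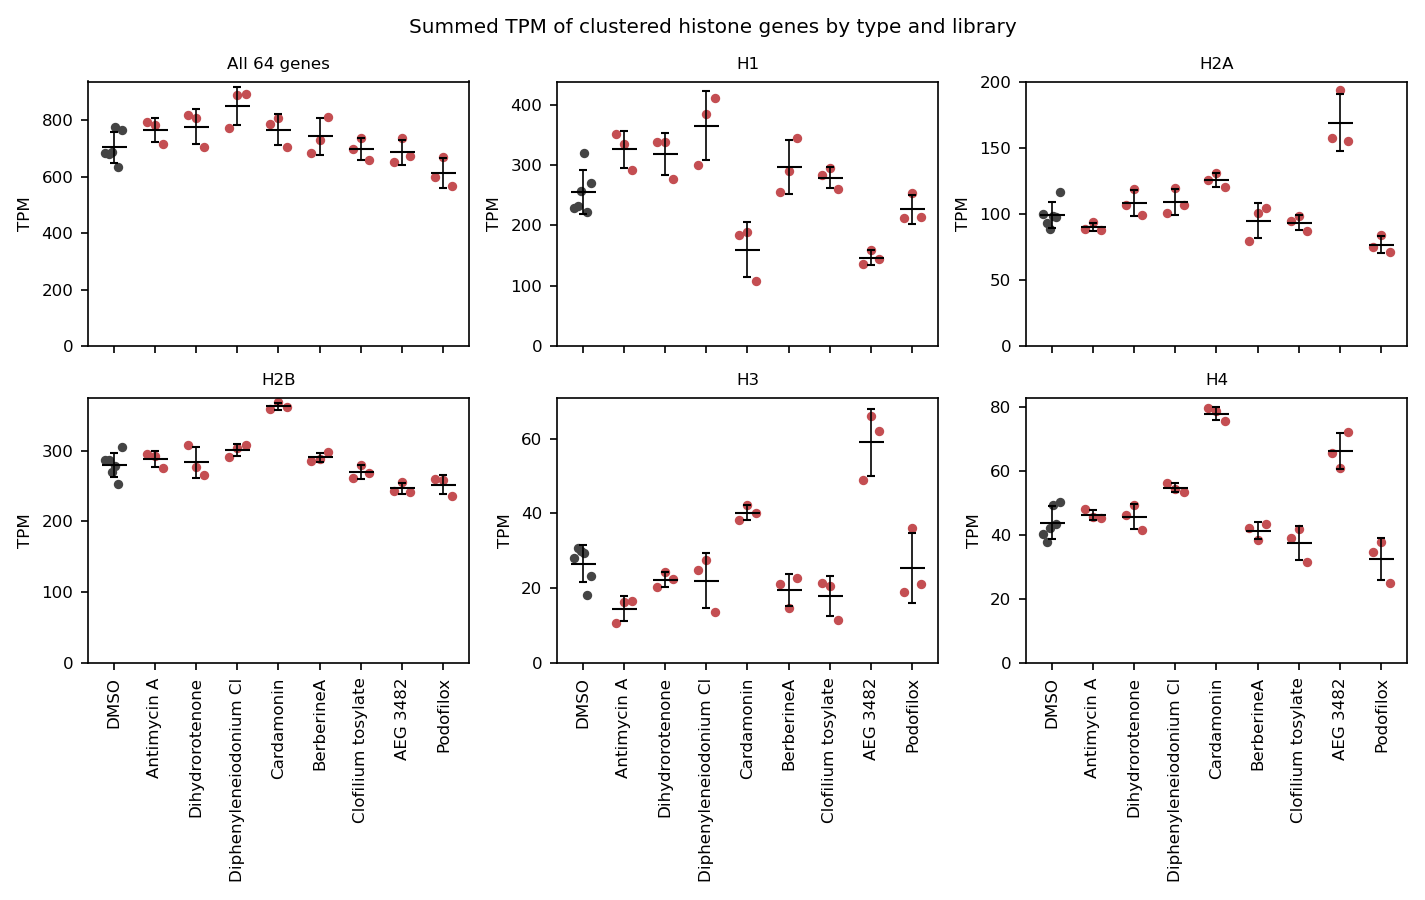
Summed TPM of the clustered histone genes in each library (points), in all and by type, with the mean and SD of each group (bars), 6 libraries for DMSO and 3 for each compound. The sum of all 64 overlaps DMSO in every group, while H1 is lower and H3 and H4 are higher with Cardamonin and AEG 3482.

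Several of these sums rest on few genes. The H1 sum is nearly all Hist1h1c, and without that gene the H1 difference was -0.11 with Cardamonin and 0.66, the opposite direction, with AEG 3482. The H2A sum is mostly the Hist2h2aa pair, at 82.5 TPM in DMSO, 146 TPM with AEG 3482, above the DMSO range, and 60.6 TPM with Podofilox, below it. With Cardamonin the pair was at 97.9 TPM, overlapping DMSO, while the H2A genes of the Hist1 cluster alone differed by 1.65 on the log2 scale. Over those Hist1 genes, Podofilox was 0.21 above DMSO, again the opposite direction. With Gm20634 added, H3 came to 29.8 ± 2.54 TPM in DMSO (n = 6), where the SD without it was 4.92. On that sum Antimycin A was at 17.5 ± 1.48 TPM (-0.77), Clofilium tosylate at 20.8 ± 0.987 (-0.52), BerberineA at 22.1 ± 0.76 (-0.43) and Dihydrorotenone at 22.6 ± 2.004 (-0.40), all below the DMSO range, and Cardamonin at 40.4 ± 2.04 (0.44) and AEG 3482 at 63.0 ± 3.54 (1.08) above it. This addition was chosen after seeing the data.

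Single genes were tested with limma on log2(TPM + 1), and 42 of the 64 reached the filter of 1 TPM in 3 libraries. The other 22, with a mean of at most 0.689 TPM over all libraries, had none. Since the filter can be passed through 1 group alone, the 42 are not a fair sample of the 64. Fold changes are on the log2(TPM + 1) scale, which understates the changes of low genes. At an adjusted p (limma, Benjamini-Hochberg over 13644 genes) under 0.05, 17 of 42 (40.5%) changed with Cardamonin, where 70.3% of all tested genes did, and 21 of 42 (50%) with AEG 3482, where 68.1% did. The counts were 4 with Antimycin A (9.52%, against 37.3%), 2 with Dihydrorotenone (4.76%, against 14.4%), 4 with Diphenyleneiodonium Cl (9.52%, against 25.7%), 2 with BerberineA (4.76%, against 21.7%), 2 with Clofilium tosylate (4.76%, against 23.4%) and 5 with Podofilox (11.9%, against 46.2%). In all 8 comparisons the share of these genes that changed was below that of all genes tested. The genes were not matched for level, and many clustered histone genes are low. The lower share therefore does not show that histone genes respond less than other genes of like level. Of the 57 calls, 40 were higher and 17 lower, and 38 belonged to Cardamonin and AEG 3482. Over all tested genes too, Cardamonin and AEG 3482 had the largest shares of calls. The background by direction was 21.8% higher and 15.5% lower with Antimycin A (3 and 1 of 42 genes), 4.95% and 9.43% with Dihydrorotenone (1 and 1), 14.0% and 11.7% with Diphenyleneiodonium Cl (3 and 1), 12.6% and 9.16% with BerberineA (1 and 1), 10.9% and 12.5% with Clofilium tosylate (1 and 1) and 26.2% and 20% with Podofilox (2 and 3). The 8 comparisons share the DMSO libraries and are not independent.

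**Figure D4:**
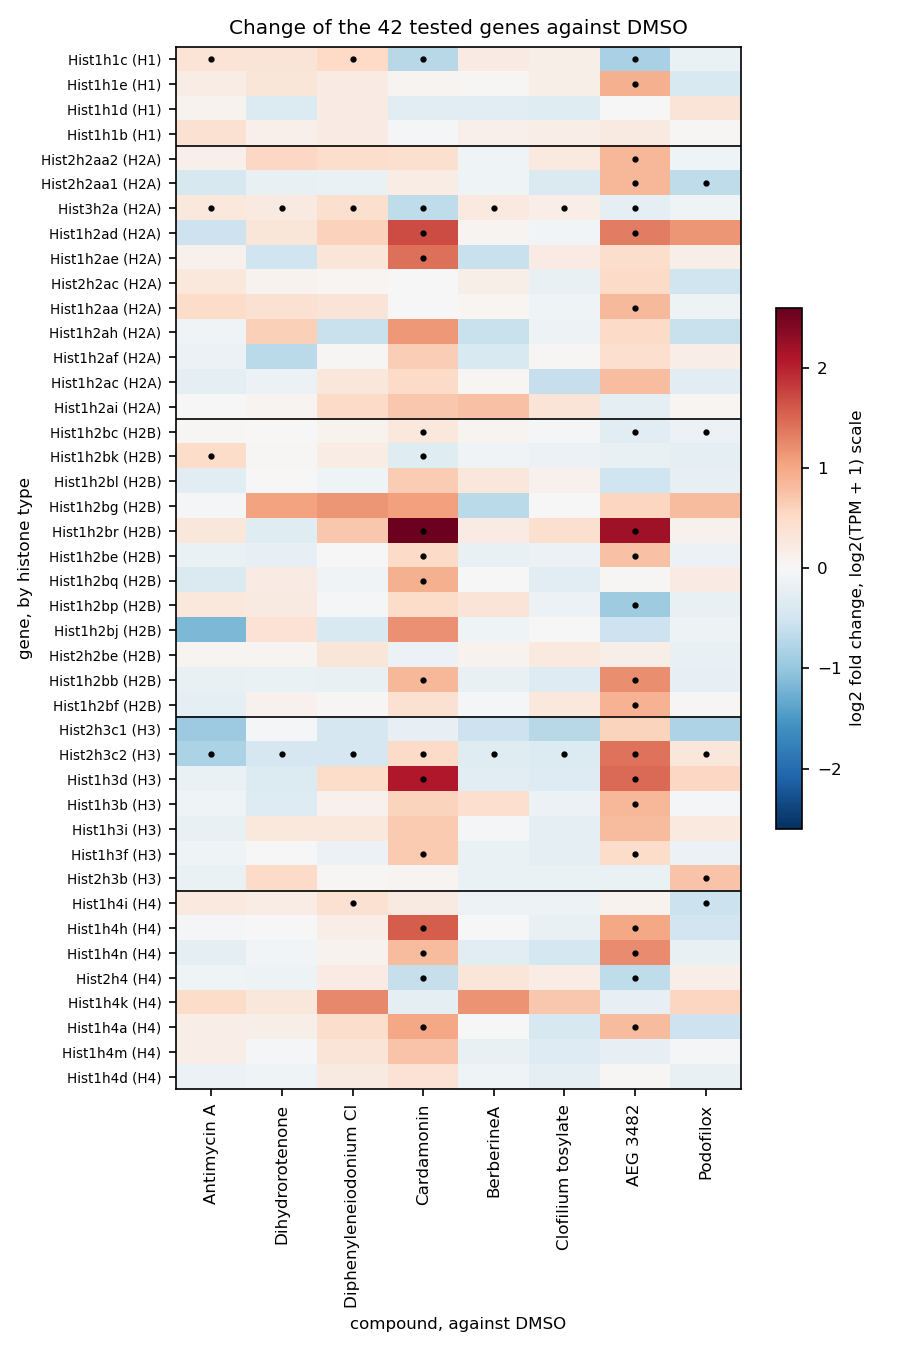
Log2 fold change against DMSO (colour, log2(TPM + 1) scale) of the 42 tested clustered histone genes (rows, by type and then by level) with each of the 8 compounds (columns). Dots mark an adjusted p under 0.05 in limma. Of 57 dots, 38 stand in the columns of Cardamonin and AEG 3482, which also had the largest shares of all tested genes called (70.3% and 68.1%).

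With Cardamonin 13 genes rose (background for higher calls 37.3%) and 4 fell (33.0%), and with AEG 3482 16 rose (41.3%) and 5 fell (26.8%). The median log2 fold change of the 42 genes was 0.50 with Cardamonin, against 0.03 over all genes, and 0.49 with AEG 3482, against 0.10. The 22 genes below the filter are not in these medians. Of the 42, Hist1h2bf, Hist1h3f and Hist1h4d would not have passed the filter without the libraries of Cardamonin and AEG 3482. They account for 1 of the 13 rises with Cardamonin and 2 of the 16 with AEG 3482, and the medians of the other 39 were 0.50 and 0.50. For these reasons the medians and counts describe the tested genes and support nothing further. By type, 0 of 4 tested H1 genes, 2 of 11 H2A, 5 of 12 H2B, 3 of 7 H3 and 3 of 8 H4 rose with Cardamonin, and 1, 4, 4, 4 and 3 of them rose with AEG 3482. Of the 16 tested genes with a long annotated transcript, 10 changed with each of these compounds. Of the 26 without one, 7 changed with Cardamonin and 11 with AEG 3482.

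Hist1h1c, the main linker histone RNA here, fell with both. Its Cardamonin libraries were at 180, 182 and 105 TPM and its AEG 3482 libraries at 130, 152 and 136 TPM, all below the DMSO range of 218 to 314. The log2 fold changes were -0.72 ± 0.14 (SE, adjusted p = 8.64e-05, limma) and -0.83 ± 0.14 (adjusted p = 1.32e-05). Tested directly, the pair of compounds did not differ (log2 difference 0.12 ± 0.17, adjusted p = 0.571). With Diphenyleneiodonium Cl the libraries were at 294, 377 and 404 TPM, a log2 fold change of 0.51 (adjusted p = 0.00887), which overlapped DMSO. That call was lost without Diphenyleneiodonium Cl replicate 2 (adjusted p = 0.0503) or replicate 3 (0.0752). With Antimycin A they were at 345, 328 and 287 TPM, a log2 fold change of 0.36 (adjusted p = 0.0493), and this call was lost without Antimycin A replicate 1 or 2, or without DMSO replicate 1, 2, 3 or 5 (adjusted p 0.0622 to 0.182). It was also lost under 7 settings of the fit (pseudocount 0.1, no filter, median-ratio scaling, quantile normalization, without the 20 most abundant genes, no intensity trend and robust moderation), with adjusted p from 0.0505 to 0.0883 in limma. Hist1h1e, another H1 gene, rose with AEG 3482 to 3.75, 4.95 and 4.99 TPM from a DMSO range of 1.36 to 2.56 (log2 fold change 0.93, adjusted p = 0.00563). It shares 24.5% of its 31-base words with the H2B gene Hist1h2be, which also rose. With Cardamonin Hist1h1e was at 2.09, 2.89 and 1.42 TPM, overlapping DMSO, and the compounds differed for it (log2 difference -0.85, adjusted p = 0.0303).

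H1f0, the replication-independent linker histone, is no member but stands beside Hist1h1c. It fell with Cardamonin (40.0 ± 7.55 TPM, log2 fold change -1.32) and AEG 3482 (58.6 ± 1.67 TPM, -0.76) from 100.6 ± 9.14 TPM in DMSO. It rose with Antimycin A (1.17), Diphenyleneiodonium Cl (0.87), BerberineA (0.71), Clofilium tosylate (0.69) and Dihydrorotenone (0.52), and with Podofilox it was at 103 ± 6.80 TPM (adjusted p = 0.726, limma).

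Hist1h2bc, the main H2B gene, moved in opposite directions with the pair of compounds. It was at 272, 272 and 254 TPM with Cardamonin, above every DMSO library, and at 176, 183 and 173 TPM with AEG 3482, below every one. The log2 fold changes were 0.28 ± 0.05 (adjusted p = 1.01e-05) and -0.30 ± 0.05 (adjusted p = 4.64e-06), and the direct difference was 0.58 ± 0.06 (adjusted p = 1.93e-09, limma). With Podofilox it was at 208, 202 and 180 TPM (log2 fold change -0.15, adjusted p = 0.0105), which overlapped DMSO, and the call was lost without Podofilox replicate 3 (adjusted p = 0.162) or with only Podofilox and DMSO fitted (0.0649).

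Among the other H2B genes, Hist1h2br had the largest rise of all tested members. It was at 21.4, 19.0 and 15.6 TPM with Cardamonin and at 13.2, 14.0 and 16.1 TPM with AEG 3482, while the DMSO libraries ran from 0.672 to 5.51 TPM. The log2 fold changes were 2.55 ± 0.29 (adjusted p = 2.17e-08) and 2.20 ± 0.29 (adjusted p = 3e-07), with no overlap. Because its reads cannot be fully told from those of Hist1h2bq, the sum of both is the firmer value. That sum was 23.9 ± 2.61 TPM with Cardamonin and 16.8 ± 1.001 with AEG 3482, against 4.97 ± 0.897 in DMSO, and both lay above the DMSO range. Hist1h2be rose as well, from 2.77 to 4.31 TPM with Cardamonin and to 5.45 TPM with AEG 3482. Hist1h2bk was at 37.6, 27.4 and 29.8 TPM with Antimycin A (log2 fold change 0.48, adjusted p = 0.00909), but the call was lost without Antimycin A replicate 1 (adjusted p = 0.101). With Cardamonin it was at 16.1, 18.8 and 18.0 TPM (log2 fold change -0.32, adjusted p = 0.047), and leaving out any Cardamonin library, or DMSO replicate 2, 3 or 4, lost the call, as did no filter, no intensity trend, and fitting only Cardamonin and DMSO. Hist1h2bp fell with AEG 3482 (log2 fold change -0.93, adjusted p = 0.011), but its libraries were at 0, 2.87 and 0.448 TPM against 1.46 to 3.62 in DMSO, and the call was lost without AEG 3482 replicate 1 or replicate 3. Hist1h2bl was at 21.5, 31.2 and 33.2 TPM with Cardamonin and 13.1, 16.03 and 8.04 TPM with AEG 3482. Neither group passed the test against DMSO (adjusted p = 0.065 and 0.155), but they differed from each other (log2 difference 1.17, adjusted p = 0.00806).

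Of the H2A genes, Hist2h2aa1 rose with AEG 3482 to 86.1, 86.8 and 64.8 TPM, all above the DMSO range of 29.5 to 57.9 (log2 fold change 0.85 ± 0.19, adjusted p = 0.000347). Hist2h2aa2 rose to 50.1, 80.4 and 68.7 TPM from 15.7 to 52.8 (log2 fold change 0.86 ± 0.31, adjusted p = 0.017), which overlapped, and the call was lost without AEG 3482 replicate 2 or 3, with quantile normalization, and with only AEG 3482 and DMSO fitted. With Podofilox Hist2h2aa1 was at 26.6, 37.4 and 19.2 TPM (log2 fold change -0.66, adjusted p = 0.00606), and without Podofilox replicate 3 the call was lost (adjusted p = 0.0988). Hist1h2ad rose from 1.12 TPM to 5.11 ± 2.19 with Cardamonin and 4.25 ± 3.33 with AEG 3482, with a wide spread.

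Hist3h2a (chr11:58954685-58956830), the H2A gene of the Hist3 cluster, had replicate libraries close together. DMSO ran from 7.66 to 9.23 TPM. Cardamonin was at 5.07, 5.24 and 5.10 TPM, below it (log2 fold change -0.66 ± 0.06, adjusted p = 4.32e-10). AEG 3482 was at 6.91, 7.96 and 6.95 TPM (log2 fold change -0.23, adjusted p = 0.00171), which overlapped. Antimycin A (11.0, 10.5 and 10.8 TPM), Dihydrorotenone (10.5, 10.8 and 9.90), Diphenyleneiodonium Cl (11.3, 11.7 and 12.9), BerberineA (11.1, 10.3 and 10.3) and Clofilium tosylate (9.496, 10.5 and 9.79) all lay above the DMSO range. Their log2 fold changes were 0.28, 0.23, 0.41, 0.25 and 0.17, with adjusted p of 0.000703, 0.0117, 1.18e-05, 0.00362 and 0.0436 (limma). The call with Clofilium tosylate was lost without any 1 of its libraries or without DMSO replicate 2, 5 or 6, and that with Dihydrorotenone without its replicate 2. With only the compound and DMSO fitted, both were lost (adjusted p = 0.125 and 0.0731, limma), and the call with Clofilium tosylate was also lost with no filter (0.0575) and without the 20 most abundant genes (0.0514). The annotated gene Trim17 starts at the same base and on the same strand and shares 32.1% of the 31-base words of Hist3h2a. Trim17 was at 0.606 ± 0.151 TPM in DMSO, 1.29 ± 0.152 with Cardamonin and 1.84 ± 0.189 with AEG 3482, and the part of this overlap in the result was not tested.

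Among H3 genes, Hist2h3c2 (chr3:96238108-96239127) changed with all 8 compounds, which no other tested member did. It was at 24.2, 28.1 and 23.4 TPM with AEG 3482 and at 13.7, 12.4 and 12.9 TPM with Cardamonin, above the DMSO range of 7.10 to 10.5. The log2 fold changes were 1.41 ± 0.10 (adjusted p = 3.09e-12) and 0.51 ± 0.10 (adjusted p = 6.51e-05), and the direct difference between these compounds was -0.90 ± 0.11 (Cardamonin minus AEG 3482, adjusted p = 2.37e-07). With Antimycin A it was at 5.48, 4.30 and 3.93 TPM, below DMSO (log2 fold change -0.83 ± 0.10, adjusted p = 2.3e-07). That fall exceeded the one with Dihydrorotenone, at 6.40, 6.18 and 6.16 TPM (direct difference -0.39 ± 0.11, adjusted p = 0.02), although both block the respiratory chain. Diphenyleneiodonium Cl (log2 fold change -0.43), BerberineA (-0.32) and Clofilium tosylate (-0.35) were lower too, and Podofilox was higher (0.29, adjusted p = 0.0198), a call lost without Podofilox replicate 2. The call with BerberineA was lost without BerberineA replicate 1 or 3, and that with Clofilium tosylate without Clofilium tosylate replicate 1. With only the compound and DMSO fitted, the calls with BerberineA, Clofilium tosylate and Podofilox were lost (adjusted p = 0.0864, 0.0602 and 0.0811, limma), so the count of 8 compounds holds for the fit over all 30 libraries. Hist2h3c1 had no call in any comparison with DMSO. Between compounds, it was called in the contrasts of AEG 3482 with Antimycin A, Clofilium tosylate and Podofilox. The sum of Hist2h3c1, Hist2h3c2 and Gm20634, which puts shared reads together, was 25.6 ± 2.20 TPM in DMSO and 49.2 ± 2.38 with AEG 3482, above the DMSO range. It was 24.1 ± 1.66 with Cardamonin, which overlapped DMSO, whereas Hist2h3c2 alone lay above it. It lay below the DMSO range with Antimycin A (14.8 ± 1.22), Clofilium tosylate (18.2 ± 0.653), BerberineA (18.6 ± 0.635), Dihydrorotenone (19.0 ± 1.03) and Diphenyleneiodonium Cl (19.96 ± 1.08).

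Hist1h3d, an H3 gene of the Hist1 cluster (chr13:23575763-23577011), was at 10.1, 10.5 and 11.4 TPM with Cardamonin and 5.14, 7.01 and 8.08 TPM with AEG 3482, above a DMSO range of 0.345 to 2.83. The log2 fold changes were 2.08 ± 0.27 (adjusted p = 1.71e-07) and 1.47 ± 0.27 (adjusted p = 3.2e-05). Hist2h3b passed with Podofilox (log2 fold change 0.73, adjusted p = 0.0467), but its libraries were at 0.924 and 2.42 TPM and at 0, and the call was lost without Podofilox replicate 1 or 2, or without DMSO replicate 1, 3, 4, 5 or 6. It was also lost with a pseudocount of 0.1 or 0.5, with no filter, and with only Podofilox and DMSO fitted.

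Of the H4 genes, most of which encode the same protein, Hist1h4h (chr13:23531050-23531519) had the largest rise with Cardamonin, and Hist1h4n had a larger one with AEG 3482. It was at 33.2, 33.2 and 36.6 TPM with Cardamonin and 22.9, 17.8 and 29.2 TPM with AEG 3482, above the DMSO range of 6.83 to 16.6. The log2 fold changes were 1.58 ± 0.22 (adjusted p = 7.61e-07) and 1.01 ± 0.22 (adjusted p = 0.000305). Hist1h4n rose to 15.6, 17.2 and 18.5 TPM with AEG 3482 from 3.91 to 10.6 in DMSO (log2 fold change 1.23, adjusted p = 0.000512). It was at 13.4, 10.4 and 14.1 TPM with Cardamonin (0.81, adjusted p = 0.0139), a call lost without Cardamonin replicate 3. It shares most of its sequence with Hist1h4m, and the sum of both was 15.7 ± 2.22 TPM with Cardamonin and 17.7 ± 2.47 with AEG 3482, against 7.97 ± 3.04 in DMSO, both above its range. Hist1h4i, the highest H4 gene in DMSO, was not called with these compounds. It was at 12.4, 14.1 and 9.91 TPM with Podofilox, below the DMSO range of 14.5 to 20.9 (log2 fold change -0.55 ± 0.11, adjusted p = 0.000274), and at 22.9, 24.5 and 25.2 TPM with Diphenyleneiodonium Cl, above it (0.40, adjusted p = 0.00982). The latter call was lost without Diphenyleneiodonium Cl replicate 3 (adjusted p = 0.0501). Hist2h4, of the Hist2 cluster, fell instead, from 2.34 ± 0.531 TPM to 1.17 ± 0.0857 with Cardamonin (log2 fold change -0.60) and 1.11 ± 0.191 with AEG 3482 (-0.65).

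**Figure D5:**
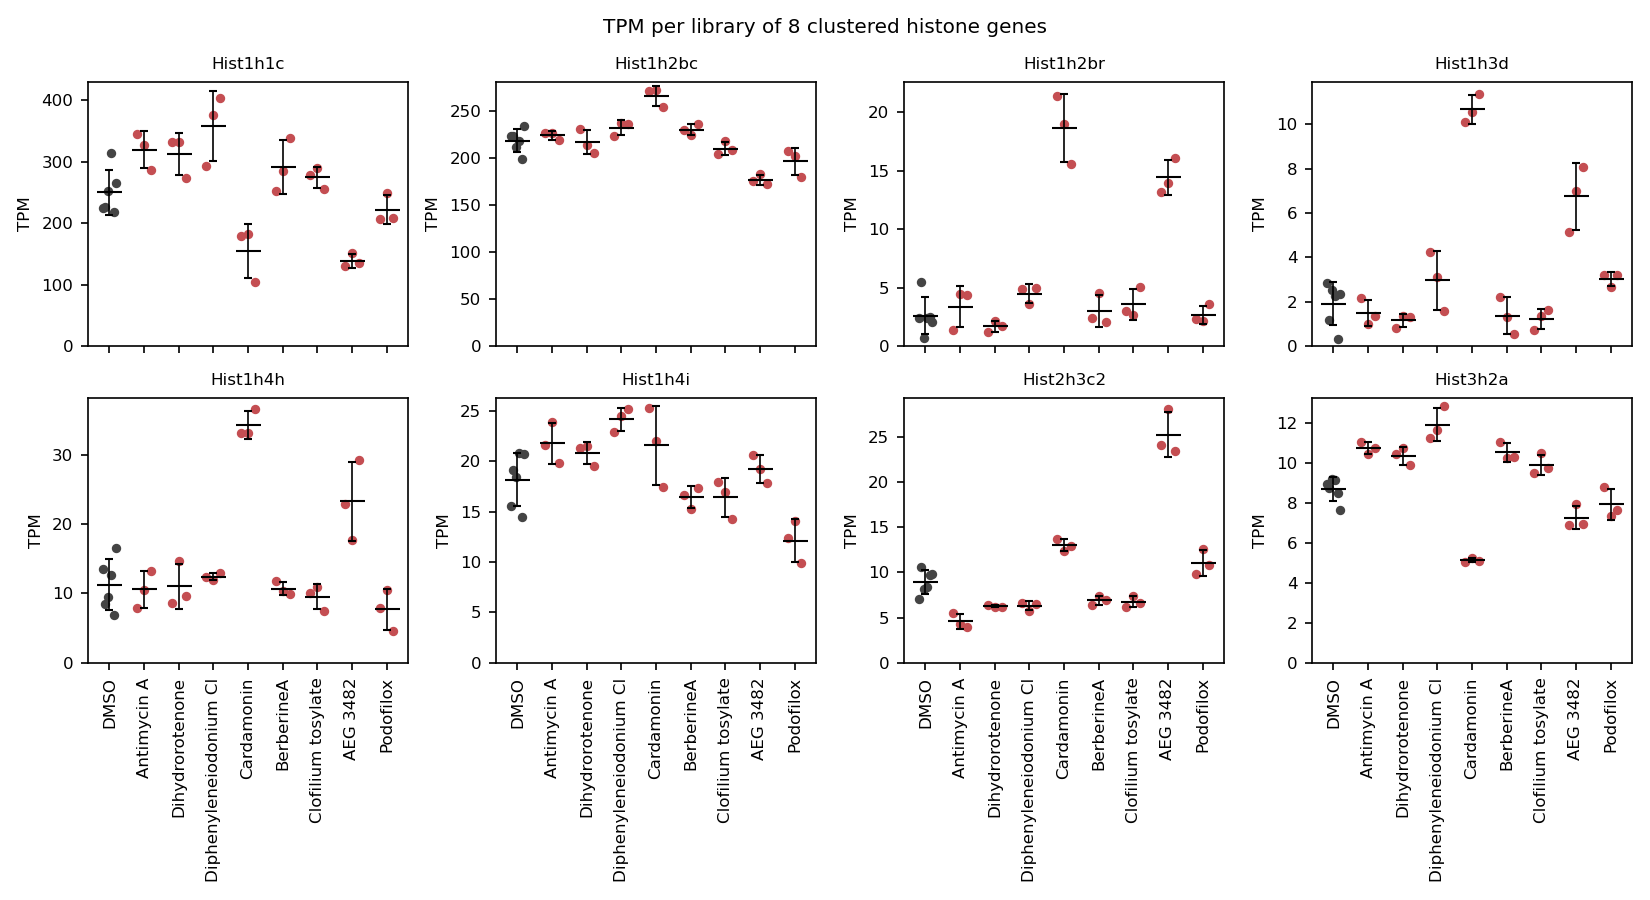
TPM in each library (points) of 8 clustered histone genes, with the mean and SD of each group (bars), 6 libraries for DMSO in grey and 3 for each compound in red. Hist1h1c is lowest with Cardamonin and AEG 3482, where Hist1h2br, Hist1h3d, Hist1h4h and Hist2h3c2 are highest, and Hist3h2a is above DMSO with 5 compounds.

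Between compounds, the 42 genes were also compared directly in 28 contrasts, which gave 288 calls, and the share of all tested genes called in each contrast stands in parentheses. Against Cardamonin, 20 genes differed with Antimycin A (64.2%), 17 with Dihydrorotenone (67.1%), 16 with Diphenyleneiodonium Cl (65.4%), 19 with BerberineA (65.5%), 21 with Clofilium tosylate (65.1%) and 17 with Podofilox (57.8%). Against AEG 3482, 20 differed with Antimycin A (64.4%), 17 with Dihydrorotenone (65.4%), 18 with Diphenyleneiodonium Cl (64.3%), 21 with BerberineA (63.9%), 21 with Clofilium tosylate (64.4%) and 24 with Podofilox (60.3%). Cardamonin and AEG 3482 differed from each other in 11 genes (55.3%), of which 6 were higher with Cardamonin and 5 with AEG 3482. Podofilox differed from Antimycin A in 10 genes (41.4%), from Dihydrorotenone in 6 (45.2%), from Diphenyleneiodonium Cl in 9 (42.7%), from BerberineA in 8 (42.6%) and from Clofilium tosylate in 6 (39.1%). The contrasts among Antimycin A, Dihydrorotenone, Diphenyleneiodonium Cl, BerberineA and Clofilium tosylate had 0 to 2 genes each. Antimycin A differed from Dihydrorotenone in 1 (15.5%), from Diphenyleneiodonium Cl in 1 (6.04%), from BerberineA in 2 (9.04%) and from Clofilium tosylate in 2 (5.21%), and Diphenyleneiodonium Cl from Clofilium tosylate in 1 (3.15%). In the other 5, Dihydrorotenone against Diphenyleneiodonium Cl (3.68%), BerberineA (1.51%) and Clofilium tosylate (2.46%), and BerberineA against Diphenyleneiodonium Cl (0.623%) and Clofilium tosylate (2.81%), limma called 0 of the 42, and 2 to 5 genes had an unadjusted p under 0.05. In each of the 28 contrasts a smaller share of the 42 genes than of all genes was called, again without matching for level.

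Genes that act on histone RNAs and histones were followed as lists. Of 25 genes of histone RNA processing, 15 rose and 2 fell with Cardamonin and 13 rose and 6 fell with AEG 3482. Slbp, the stem-loop binding protein, was at 36.5 ± 1.998 TPM in DMSO and rose with AEG 3482 (62.0 ± 5.80 TPM, log2 fold change 0.75, adjusted p = 6.26e-11). It was at 37.9 ± 2.58 TPM with Cardamonin (adjusted p = 0.453) and fell with Podofilox (30.7 ± 0.543 TPM, -0.24, adjusted p = 0.00218). Of 24 histone chaperone genes, 12 rose and 2 fell with Cardamonin and 13 rose and 3 fell with AEG 3482. Nasp, a chaperone of H1 and of H3 with H4, rose in both, by 1.06 and 1.07 on the log2 scale from 18.0 ± 1.08 TPM in DMSO. Of the 11 replication-independent histone genes, 5 rose and 4 fell with Cardamonin and 4 rose and 2 fell with AEG 3482. With Antimycin A 6 rose and 0 fell (all genes 21.8% and 15.5%), with the other 5 compounds 1 to 4 rose and 0 to 3 fell, and their sum was 2528 ± 71.7 TPM with Antimycin A and 2482 ± 27.1 with Cardamonin, both above the DMSO range. With the other 6 compounds, 1 to 9 genes of the processing list rose and 1 to 4 fell, and 0 to 10 of the chaperone list rose and 0 to 2 fell. The share of all genes called in each direction with Cardamonin and AEG 3482 is that given above; with the others 4.95% to 26.2% were higher and 9.16% to 20% lower. The medians of the processing list were 0.22 with Cardamonin and 0.23 with AEG 3482, and those of the chaperone list 0.20 and 0.19, against 0.03 and 0.10 over all genes.

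Genes of DNA replication and mitosis give the cycling state measured beside these values. Of 37 tested replication genes, 12 rose and 11 fell with Cardamonin and 16 rose and 7 fell with AEG 3482, where 37.3% and 33.0%, and 41.3% and 26.8%, of all genes were higher and lower. With Antimycin A 11 rose and 3 fell (all genes 21.8% and 15.5%), with Podofilox 7 and 6, and with the other 4 compounds 1 to 5 rose and 1 to 3 fell. Mcm7, a subunit of the replicative helicase, rose with Cardamonin (77.4 ± 5.499 TPM) and AEG 3482 (51.6 ± 2.81 TPM) from 26.0 ± 2.13 TPM in DMSO. Tk1, a thymidine kinase made in S phase, fell with both (1.85 ± 0.529 and 3.07 ± 0.438 TPM, from 6.93 ± 0.793). Neither was particular to these compounds. Mcm7 had the highest log2 fold change of the list with Podofilox too (0.57). Tk1 had the lowest with Podofilox (-1.02), Clofilium tosylate (-0.74), Antimycin A (-0.73), BerberineA (-0.57) and Diphenyleneiodonium Cl (-0.47). With Dihydrorotenone the lowest was Rfc1 (-0.86). The medians of the replication list were 0.057 and 0.088 with Cardamonin and AEG 3482, against 0.03 and 0.10 over all genes. Of 17 tested mitotic genes, 2 rose and 7 fell with Cardamonin and 3 rose and 5 fell with AEG 3482. With Podofilox 0 rose and 4 fell (all genes 26.2% and 20%), and with the other 5 compounds 1 to 3 rose and 0 to 1 fell. Cdk1, which drives entry into mitosis, fell from 31.6 ± 0.798 TPM to 9.54 ± 1.08 with Cardamonin and 7.68 ± 2.34 with AEG 3482. With Podofilox Cdk1 also had the lowest log2 fold change of the mitotic list (-0.56). Mki67, a marker of cycling cells, was at 0.229 ± 0.0528 TPM in DMSO, 0.0245 ± 0.0058 with Cardamonin and 0.0538 ± 0.0105 with AEG 3482, and was not tested because it is under the filter. The medians of the mitotic list were -0.21 and -0.14 with Cardamonin and AEG 3482. The part of the cell cycle in the changes of the histone genes was not tested.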

How the data were processed

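RNA from 30 libraries of 1 fibroblast line was analysed as the authors deposited it, a table of TPM per gene. Per the series text, the authors quantified transcripts with kallisto (0.43.1, per the submitters' processing notes, which also name FastQC and mm10) and summed them with tximport. The transcript index is not given in the sources used here. The listed TPM of a library sum to 927024 to 937134, and depth is unknown, so that precision is judged from the spread between libraries. Groups follow the agent label. No libraries were identical (0 found).

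Identifiers were matched to GENCODE M21 (GRCm38), which named 29426 of 29861 genes. Genes at 1 TPM or more in at least 3 libraries (13644) were fitted with limma 3.58.1 in R 4.3.3 on log2(TPM + 1), with 9 group means over all 30 libraries, an intensity trend, no block, and Benjamini-Hochberg adjustment within each comparison (threshold 0.05). The script was tested on simulated data. Sums per type are of TPM and carry no test; a sum is said to leave the DMSO range where all 3 libraries lie outside that of the 6. Sharing is the percent of a gene's 31-base words found in transcripts of other genes, on either strand.

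Genes named are the 3 highest of each type and, for each compound, the called member with the largest rise and fall; Hist1h2ad, Hist1h2be and Hist2h4, the partners of shared sequence and the genes of the head-to-head pairs were named after their values were seen. The members and lists were chosen with earlier results of these data known. Alternatives covered the pseudocount, filter, scaling, moderation, samples in the fit, replicate block, members summed and left-out libraries.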

Additional observations from a re-analysis of the deposited data

Results flagged for a closer look

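Over 24 sets of the 6 DMSO libraries examined (type sums and named genes), 1 held a library far from the rest: Hist2h3b, an H3 gene, was at 1.06 TPM in DMSO replicate 2 and listed at 0 in the other 5. Chance marks about 1 set in 20 in this way where values spread evenly around a mean. That rate does not hold for Hist2h3b, since any nonzero library is marked when the other 5 are at 0. Hist2h3b shares all of its 31-base words with another annotated gene.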

How the results depend on the processing

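Counts of changed genes moved over 1.5 times in few settings. With a mean of at least 5 TPM required, 9 genes changed with Cardamonin and 9 with AEG 3482, where fewer were tested. Of all 10178 genes at that level, 4406 were higher and 3316 lower with Cardamonin. With AEG 3482, 4897 were higher and 2617 lower. With only the compound and DMSO fitted, 1 changed with Dihydrorotenone, 1 with BerberineA, 0 with Clofilium tosylate (limma, 3 at an unadjusted p under 0.05) and 2 with Podofilox. The background moved too. In that fit 318 of all 13644 genes were higher and 580 lower with Dihydrorotenone, against 676 and 1287 in the main fit. Counts under other settings are therefore not measures of how histone genes compare with all genes. Without the 20 most abundant genes, 1 changed with Clofilium tosylate. Leaving out 1 library gave 1 to 3 for Dihydrorotenone (1 without its replicate 2), 2 to 6 for Diphenyleneiodonium Cl (2 without its replicate 3), 1 to 4 for BerberineA (1 without its replicate 1 or 3, 4 without DMSO replicate 5) and 0 to 2 for Clofilium tosylate (0 without its replicate 1, where 2 had an unadjusted p under 0.05). For Clofilium tosylate the count was 1 without its replicate 2 or 3 or without DMSO replicate 2, 5 or 6. The ranges for the other compounds were 17 to 23 (AEG 3482), 3 to 5 (Antimycin A), 16 to 20 (Cardamonin) and 4 to 6 (Podofilox).

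Sums depended on which members were taken; the log2 ratios to DMSO follow. Without the most abundant member the total was -0.032 for Antimycin A, 0.12 for Diphenyleneiodonium Cl, 0.43 for Cardamonin and 0.27 for AEG 3482. Among types, H1 was then -0.11 (Cardamonin) and 0.66 (AEG 3482), H2B 0.67 (Cardamonin), H3 1.15 (Cardamonin) and 1.57 (AEG 3482), and H4 1.14 (Cardamonin) and 0.87 (AEG 3482). With only members without a long transcript the total was -0.048 (Antimycin A), 0.16 (Diphenyleneiodonium Cl), 0.53 (Cardamonin), -0.084 (BerberineA), -0.13 (Clofilium tosylate), 0.58 (AEG 3482) and -0.33 (Podofilox), H1 was 0.15 (Cardamonin) and 0.50 (AEG 3482), and H3 was 1.14 (Cardamonin) and 1.63 (AEG 3482). With only Hist1 members the total was -0.27 for AEG 3482, H2A was 1.65 (Cardamonin), 1.04 (AEG 3482) and 0.21 (Podofilox), and H3 was 1.99 (Cardamonin) and 1.78 (AEG 3482). The median log2 fold change over tested members, in place of the sum, was -0.071 (Antimycin A), 0.50 (Cardamonin), -0.14 (Clofilium tosylate) and 0.49 (AEG 3482). By type that median was -0.16 and 0.13 for H1, 0.49 and 0.51 for H2A, and 0.56 and 0.063 for H4 with Cardamonin and AEG 3482, -0.12 for H2A with Podofilox, 0.58 for H2B with Cardamonin, and -0.17 (Antimycin A) and 0.83 (AEG 3482) for H3. Median-ratio scaling put the total at -0.16 for AEG 3482 and moved the median of all genes there from 0.10 to -0.01. Beyond these constructions, the cause was not tested.

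Replicate numbers are shared between groups, but same-numbered libraries did not deviate together (median correlation of their deviations 0.009, 0.021 and -0.004 for the 3 numbers, range -0.107 to 0.151), so they do not pair. With a replicate block, 4 genes changed with Antimycin A, 1 with Dihydrorotenone, 5 with Diphenyleneiodonium Cl, 20 with Cardamonin, 1 with BerberineA, 0 with Clofilium tosylate (limma, 4 at an unadjusted p under 0.05), 22 with AEG 3482 and 6 with Podofilox. Of all 13644 genes, 4848 were then higher and 4387 lower with Cardamonin, and 5363 and 3509 with AEG 3482. The counts were 2739 and 1975 with Antimycin A, 608 and 1070 with Dihydrorotenone, and 1691 and 1373 with Diphenyleneiodonium Cl. They were 1500 and 1146 with BerberineA, 1353 and 1520 with Clofilium tosylate, and 3350 and 2580 with Podofilox. Of the named results those lost with the block were Hist1h2bk with Antimycin A (adjusted p = 0.0791), Hist2h3b with Podofilox (0.214), Hist2h3c2 with BerberineA (0.113) and Clofilium tosylate (0.0699), and Hist3h2a with Dihydrorotenone (0.0781) and Clofilium tosylate (0.204) in limma. Of 40 named gene and compound results past the threshold, 24 kept it in every alternative run, 16 lost it in at least 1 and 0 turned direction. Depth is unknown, so low levels cannot be given a counting error.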
